A study of Bombus terrestris with 20 samples.

Results

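Def, the gene for the antimicrobial peptide defensin, was followed through brain, fat body and ovary of workers of the bumblebee Bombus terrestris audax and through eggs that workers had laid. It is 1 gene of the 10661 listed in the tables, chosen by its symbol with earlier results of these data known. Ovary-active workers had ovaries scoring 4 to 6 on a scale of ovary activation and were 22 to 34 days old. Ovary-inactive workers had ovaries scoring 0 to 1 and were 24 to 32 days old. Both phenotypes came from colonies that still had their queen and had passed the competition point, when workers first lay eggs. Each tissue was sequenced as 3 pools per phenotype, which gave 18 libraries, and each pool held tissue of 7 workers, except that replicate 2 of ovary-inactive brain held 14. Ovary-active and ovary-inactive pools were paired by worker age, the workers so matched were seldom nest mates, and neither age nor colony is a term in the tests here. The 2 egg libraries each held 24 worker-laid eggs up to 1 h old and had no comparison group.

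Defensins are small, cysteine-rich peptides that insects secrete into the hemolymph, where they act mostly against bacteria. The fat body, which combines roles that vertebrates divide between liver and adipose tissue, is the main source. In Drosophila, antimicrobial peptide genes are switched on through the Toll and IMD pathways, which end in transcription factors of the NF-kappa-B family such as dorsal and Relish.

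Reads assigned to the transcriptome numbered between 23171602 and 34429881 per tissue library, and 50166010 and 52324103 in the egg libraries. Tissue values are normalized counts, that is read counts scaled so that the 6 libraries of a tissue can be compared. For Def each of the 18 values was a whole number of reads once divided by the worth of 1 read in its library. Tissue labels could be checked against few named markers. Hemocytin, a gene of blood cells, had 406 to 637 normalized counts in fat body. The gene named vitellogenin-like precursor, listed as a fat body marker, had 0 to 6.7 in fat body and 83.9 to 1854 in ovary, which goes against using it for that tissue. CUGBP Elav-like 2, listed as a neuron marker, had 339 to 892 in brain and 3288 to 8135 in ovary, which goes against it as well. Ago3, listed for the germ line, had 2071 to 6059 in ovary and 642 to 1179 in brain and fat body. Each tissue table was normalized on its own, and these levels were not tested between tissues.

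In fat body, Def was high in all 3 ovary-active pools and in 1 of the 3 ovary-inactive pools. It had 6352, 7391 and 3957 normalized counts in ovary-active replicates 1, 2 and 3, and 484, 440 and 11978 in ovary-inactive replicates 1, 2 and 3. The groups overlapped, because the ovary-inactive pool 3 stood above each ovary-active pool, while the other two ovary-inactive pools stood far below them. These values rest on 3900 to 6298 reads in ovary-active pools and on 434, 514 and 13898 reads in ovary-inactive pools. The exact Poisson 95% interval of the last is 13668 to 14131 reads and covers counting error only. Fewer cells of a type and less RNA per cell cannot be told apart in such pools, nor can a level shared by all workers of a pool and a high level in a few of them.

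**Figure D1:**
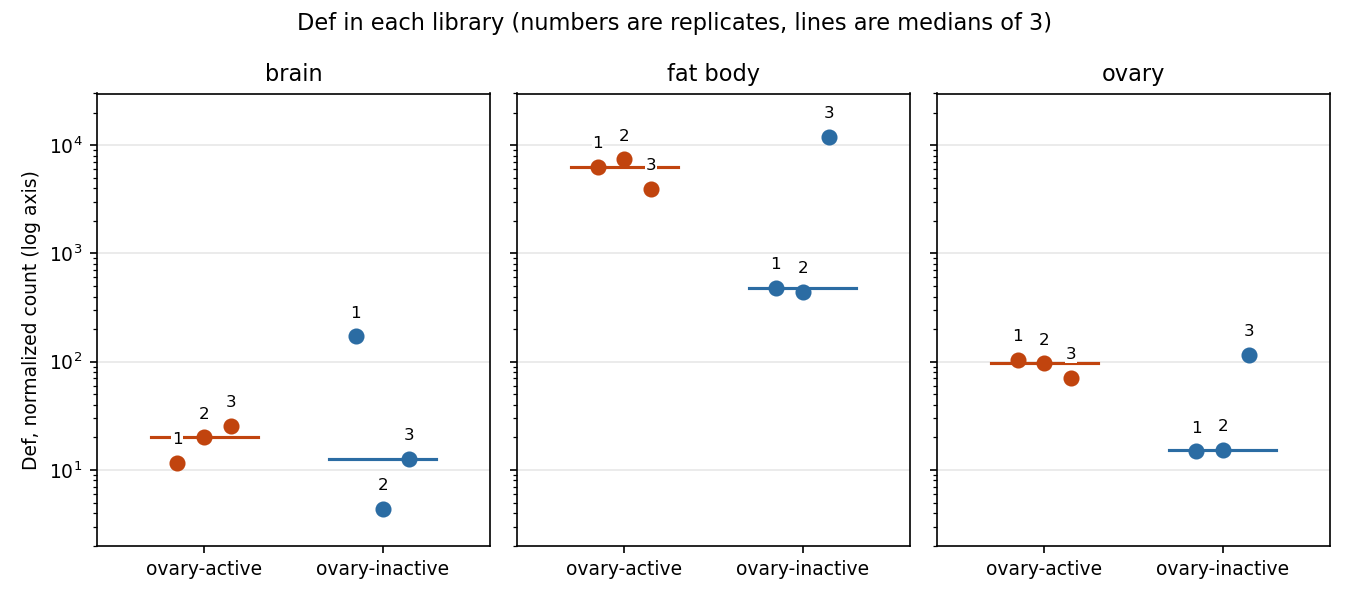
Normalized counts of Def (vertical log axis) in each library of brain, fat body and ovary, ovary-active pools left and ovary-inactive pools right, with the replicate number above each point and a line at the median of 3. In fat body and ovary the ovary-inactive replicate 3 (11978 and 116.3) lies above the 3 ovary-active pools, and in brain the ovary-inactive replicate 1 (171.5) lies above the rest.

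The mean over fat body pools was 5900 ± 1761 normalized counts in ovary-active workers and 4301 ± 6649 in ovary-inactive workers (SD, n = 3 each). On the log2(normalized count + 1) scale the difference, ovary-active minus ovary-inactive, was 2.06 with a standard error of 1.13 and a 95% interval from -0.56 to 4.68. It did not pass the test (limma, Benjamini-Hochberg adjusted p = 0.290 over 8850 genes). In the same fit 2.93% of the genes tested were called in either direction. The two-sided exact permutation test of the 6 values gave p = 0.4, where 0.1 is the smallest that 3 pools against 3 can give. Without the ovary-inactive replicate 3 the difference was 3.63 and was called (adjusted p = 0.00135, with 1.67% of genes called as higher in ovary-active workers in that fit). Leaving out any other fat body library gave 1.24 to 2.32, and none of those fits called Def. edgeR, which fits mean counts on the genes with whole reads, gave 0.43 (adjusted p = 0.844).

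The spread between ovary-inactive fat body pools was 27.2-fold from lowest to highest, against 1.87-fold between ovary-active pools. The SD of Def on the log2 scale was 2.71 over ovary-inactive pools, rank 13 among 8850 genes, where the median gene had 0.14. Over ovary-active pools it was 0.47, rank 613, also with a median gene of 0.14. None of the 12 genes with a larger spread over ovary-inactive pools was highest in replicate 3. Replicate 3 exceeded the next ovary-inactive pool 24.7-fold for Def, the largest such excess of the 8850 genes. The next gene in that order, LOC100648451, had an excess of 3.51-fold, and abaecin, in the fifth place, had 2.44-fold. These ranks are a description with no test. Hemocytin had 497, 406 and 582 normalized counts in ovary-active and 630, 635 and 637 in ovary-inactive replicates 1, 2 and 3, so it did not set replicate 3 apart in its group. Troponin I, a muscle gene, had 1908, 1988 and 2578 in ovary-active and 3579, 3861 and 2072 in ovary-inactive fat bodies. The 2 ovary-inactive pools with little Def were thus the highest for troponin I, and the pool with much Def lay among the ovary-active pools. The part of troponin I and hemocytin in the result was not tested.

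**Figure D2:**
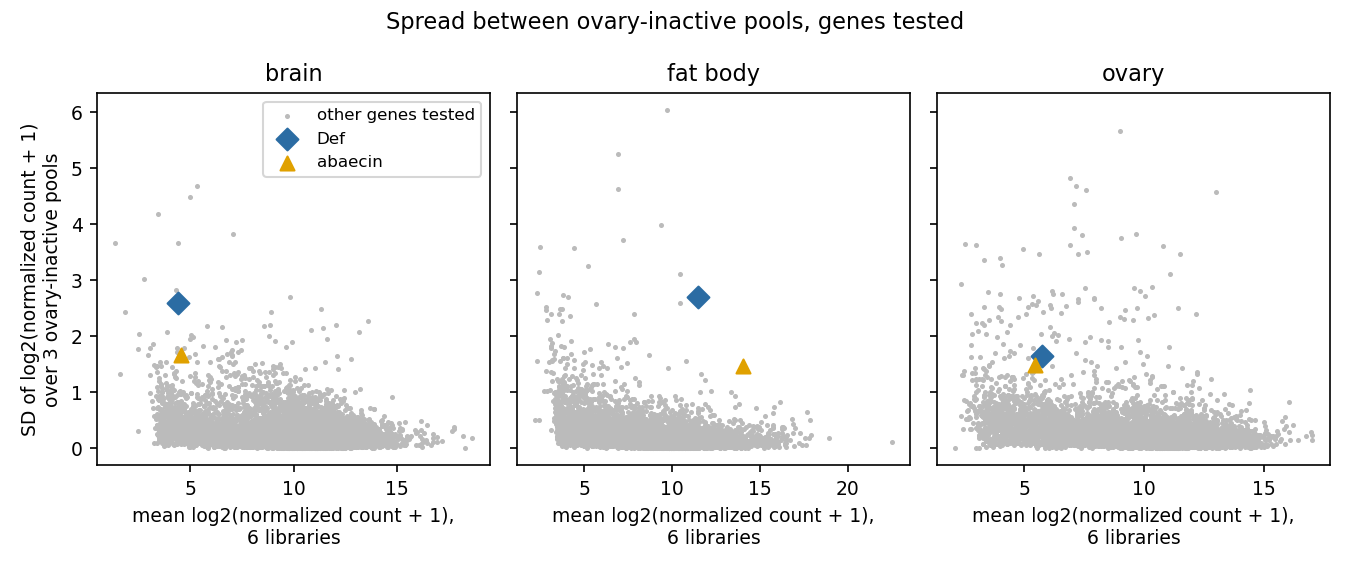
SD of log2(normalized count + 1) over the 3 ovary-inactive pools (vertical axis) against the mean over the 6 libraries of a tissue (horizontal axis), 1 grey point per gene tested, with Def as a diamond and abaecin as a triangle. Def has an SD of 2.59 for brain, 2.71 for fat body and 1.65 for ovary, where the median gene has 0.20, 0.14 and 0.18.

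In ovary, Def was lower than in fat body and again high in 1 ovary-inactive pool. It had 104.1, 96.5 and 70.7 normalized counts in ovary-active replicates 1, 2 and 3, and 14.8, 15.4 and 116.3 in ovary-inactive replicates 1, 2 and 3. The ovary-inactive replicate 3 was above the 3 ovary-active pools and the other two ovary-inactive pools were below them. The reads behind these values were 104, 91 and 51 in ovary-active pools and 17, 20 and 115 in ovary-inactive pools. Ovary-active pools averaged 90.4 ± 17.5 and ovary-inactive pools 48.8 ± 58.4 (SD, n = 3 each).

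The difference in ovary was 1.53 on the log2 scale, with a standard error of 0.75 and a 95% interval from -0.20 to 3.26. It did not pass the test (limma, adjusted p = 0.116), in a fit that called 53.9% of 9496 genes. The two-sided exact permutation p was 0.4. Without the ovary-inactive replicate 3 it was 2.48 and was called (adjusted p = 0.00373, with 20.8% of genes called as higher in ovary-active workers). Without any other library it lay between 1.04 and 1.70 and was not called. edgeR on the genes with whole reads gave 0.80 (adjusted p = 0.419).

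Ovary-active pools were close to each other in ovary, with a highest over lowest ratio of 1.47 against 7.84 in ovary-inactive pools. The SD of Def over ovary-active pools was 0.29 on the log2 scale, near the 0.25 of the median gene. Over ovary-inactive pools it was 1.65 (rank 103 of 9496), where the median gene had 0.18. The ovary-inactive replicate 3 exceeded the next pool 7.15-fold for Def, and 24 other genes had a larger excess in that library. Hemocytin was at 49.0, 67.9 and 30.5 normalized counts in ovary-active ovaries and at 192, 145 and 286 in ovary-inactive ovaries. Troponin I was at 2080, 2048 and 2021 in ovary-active ovaries and at 6638, 6453 and 9399 in ovary-inactive ovaries. Both were highest in the pool that was also high for Def, and their part in the result was not tested.

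In brain, Def rested on few reads except in 1 ovary-inactive pool. It had 11.7, 20.03 and 25.4 normalized counts in ovary-active replicates 1, 2 and 3, and 171.5, 4.34 and 12.6 in ovary-inactive replicates 1, 2 and 3. The ovary-active values lay inside the range of the ovary-inactive ones. They rest on 12, 17 and 25 reads in ovary-active pools and on 174, 5 and 13 reads in ovary-inactive pools. The exact Poisson 95% interval for 5 reads is 1.62 to 11.7, and that for 174 reads is 149 to 202. The interval for the 25 reads of ovary-active replicate 3 is 16.2 to 36.9, which does not reach that for 5 reads, while low pools next to each other in level had overlapping intervals. The ovary-inactive replicate 1 is separate from each of the other 5 pools.

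Ovary-active brains averaged 19.0 ± 6.90 normalized counts and ovary-inactive brains 62.8 ± 94.2 (SD, n = 3 each). The log2 difference was -0.28, with a standard error of 1.23 and a 95% interval from -3.25 to 2.70 (limma, adjusted p = 0.9999, with 0.0211% of 9490 genes called). The two-sided exact permutation p was 0.9. The direction depended on the libraries included. Without the ovary-inactive replicate 1 it was 1.17, and without the ovary-inactive replicate 2 it was -1.34, neither of them called. edgeR gave -1.74 (adjusted p = 0.9998).

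The ovary-inactive replicate 1 of brain exceeded the next pool 12.7-fold for Def, and 6 other genes had a larger excess there. Hemocytin had 164, 253 and 156 normalized counts in ovary-active brains and 275, 140 and 166 in ovary-inactive brains. CUGBP Elav-like 2 had 544, 826 and 534 in ovary-active and 892, 339 and 606 in ovary-inactive brains. Both were highest in the brain pool with the most Def and lowest in the ovary-inactive replicate 2, the pool of 14 workers and the one with the least Def. Troponin I had 1671, 132 and 186 in ovary-active and 167, 774 and 311 in ovary-inactive brains, with no such order. The part of these genes in the result was not tested. Of the ovary-inactive brain pools 1 came from colonies obtained later, and the sources used here do not state its replicate number outright. The study paired that pool by worker age with ovary-active pool 1. If replicate numbers follow this pairing, it was replicate 1, the pool with the most Def. The part of its colonies in the result was not tested.

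**Figure D3:**
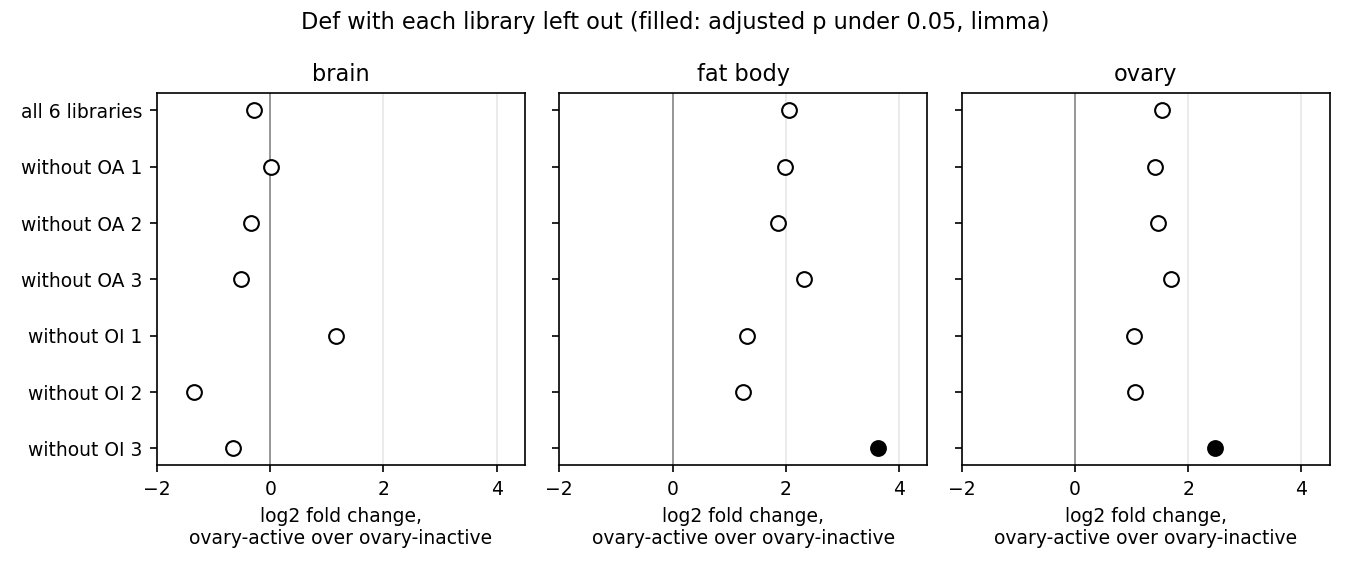
Log2 fold change of Def, ovary-active over ovary-inactive (horizontal axis), with all 6 libraries of a tissue and with each library left out (rows), filled where limma gave an adjusted p under 0.05. The filled points are those without ovary-inactive replicate 3, at 3.63 in fat body and 2.48 in ovary, and in brain the points lie between -1.34 and 1.17.

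To set the tissues side by side, Def was expressed as CPM, the normalized count relative to the library total, since each tissue table had been normalized on its own. Def had 215, 255 and 132 CPM in ovary-active and 16.4, 14.9 and 423 in ovary-inactive fat bodies. In ovary it had 3.63, 3.36 and 2.19 CPM in ovary-active and 0.628, 0.642 and 4.97 in ovary-inactive pools. In brain it had 0.485, 0.621 and 1.06 CPM in ovary-active and 6.91, 0.175 and 0.520 in ovary-inactive pools. Fat body stood above ovary and brain in each phenotype: its lowest pool, at 14.9, was above the highest ovary and brain pools, at 4.97 and 6.91. Ovary and brain overlapped. These differences between tissues were not tested.

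Fat body and ovary pools with the same replicate number had levels in a ratio of 59.2, 75.8 and 60.3 in ovary-active workers, and of 26.2, 23.3 and 85.1 in ovary-inactive workers. Both tissues had their highest ovary-inactive value in replicate 3. The study describes the same pools of workers for both tissues, with equal numbers, ages and colonies of workers, though it does not state outright that equal replicate numbers name the same pool. The high values of replicate 3 in fat body and ovary are therefore not taken as independent of each other. Over 8705 genes, deviations of equally numbered fat body and ovary pools correlated at 0.138, 0.06 and 0.123 for ovary-active replicates 1, 2 and 3. For ovary-inactive replicates 1, 2 and 3 they correlated at 0.097, 0.16 and -0.311. These values do not settle whether equal numbers name the same pool. In brain, the high ovary-inactive pool carried another number. If replicate numbers follow the age pairing, ovary-inactive replicate 3 held the same workers in all tissues, and its brain value for Def was 12.6 normalized counts.

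Abaecin (LOC100631078), a proline-rich antimicrobial peptide of bees, was the other named peptide gene of this kind. In fat body it had 42857, 39342 and 29229 normalized counts in ovary-active and 8125, 2575 and 19832 in ovary-inactive replicates 1, 2 and 3. The groups did not overlap, as was so, in the same direction, for 15.6% of the genes tested in fat body. The log2 difference was 2.30, with a standard error of 0.62, and missed the threshold (limma, adjusted p = 0.0839). As for Def, the ovary-inactive replicate 3 was the highest of its group, and without it the difference was 3.0 and was called (adjusted p = 0.0153).

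In ovary, abaecin had 26.0, 166.5 and 27.7 normalized counts in ovary-active and 46.3, 11.6 and 94.0 in ovary-inactive pools, a difference of 0.40 that was not called (adjusted p = 0.73) and fell to -0.46 without the ovary-active replicate 2. In brain it had 29.3, 22.4 and 57.9 in ovary-active and 53.2, 4.34 and 13.6 in ovary-inactive pools, a difference of 1.10 that was not called (adjusted p = 0.9999). The groups overlapped in both tissues.

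The ratio of abaecin to Def counts, which is not corrected for transcript length and so bears only on how libraries differ, was 6.75, 5.32 and 7.39 in ovary-active fat bodies and 16.8, 5.85 and 1.66 in ovary-inactive fat bodies. In ovary it was 0.25, 1.73 and 0.39 in ovary-active and 3.12, 0.75 and 0.81 in ovary-inactive pools. The ratio in the ovary libraries with the same number was thus below that of fat body in each of the 6 pairs. The ovary-inactive fat body pool with the most Def had the lowest ratio of its tissue.

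**Figure D4:**
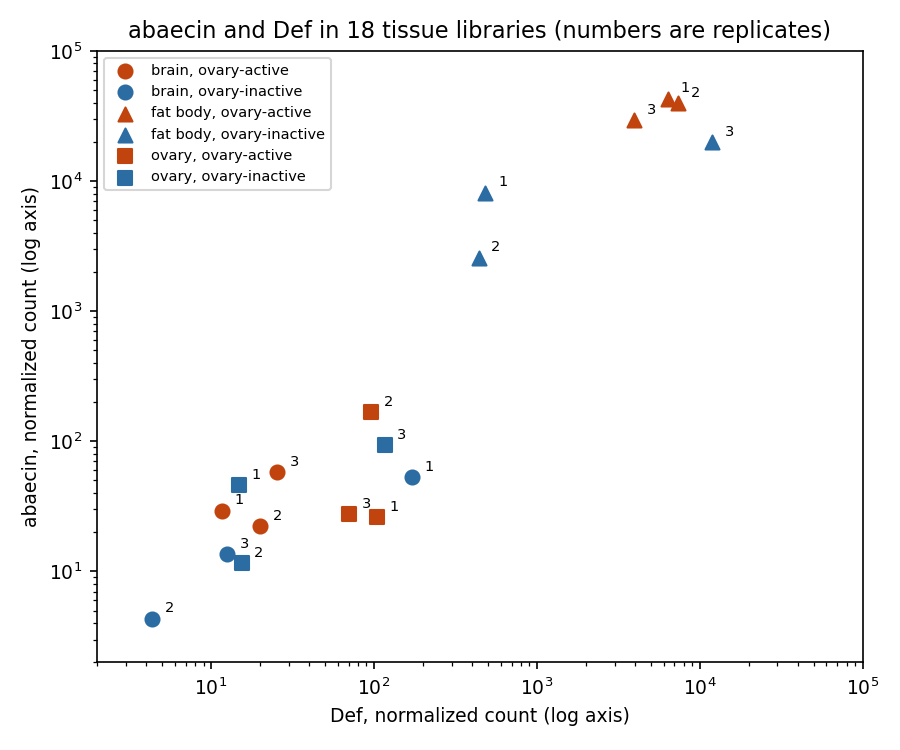
Abaecin (vertical log axis) against Def (horizontal log axis) in normalized counts, 1 point per library, colour for phenotype, shape for tissue and a replicate number beside each point. Fat body libraries lie apart at the top right, and the ovary-inactive replicate 3 has the most Def (11978) with less abaecin (19832) than the 3 ovary-active pools (29229 to 42857).

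Among 8586 genes with enough counts in each of the 3 tissues, abaecin was the gene whose level was most like that of Def over the 18 libraries, with a Pearson r of 0.95 on log2 CPM values. LOC100650242, LOC100651171, LOC100648499 and LOC100648563 followed, with r between 0.90 and 0.91. The 18 points share tissue and, within a library, depth, and no p is given. When the mean of each tissue and phenotype was taken out first, abaecin was at rank 15 with r = 0.75. The 5 leading genes were then LOC100650035 with 0.86, LOC100643705 and LOC110119637 with 0.82, LOC100650184 with 0.81 and LOC100642498, named teneurin-m, with 0.78. The largest deviations, those of the high ovary-inactive pools, carry most weight in this measure.

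The immune list held 15 genes found by name: Def and abaecin, 1 recognition gene, 6 genes grouped with the Toll pathway, 4 with the IMD pathway and 2 other effectors. The groups rest on names alone, and whether each member acts on antimicrobial peptide genes was not checked. Each passed the filter on low values in each tissue. None was called in fat body, where the median log2 difference was 0.06 over the list and 0.0003 over all genes. Among the 11 list genes with whole reads edgeR called 0 and DESeq2 called 1, where they called 1.94% and 9.49% of the 4943 genes they tested. The smallest limma p-values of the list in fat body were those of abaecin and cactus (LOC100631059), which holds dorsal-type factors in the cytoplasm. Cactus had 3144, 2946 and 3062 normalized counts in ovary-active and 6607, 4053 and 4045 in ovary-inactive fat bodies, a log2 difference of -0.64 with an adjusted p of 0.0883, and was the gene that DESeq2 called.

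None of the 6 Toll pathway genes was called in fat body, and their log2 differences ran from -0.64 for cactus to 0.94 for toll-like receptor 6 (adjusted p = 0.348), a receptor with 3.3 to 21.3 normalized counts there. Tollo differed by -0.23. Spaetzle (LOC100643414), the ligand that activates Toll, differed by 0.11, the adaptor MyD88 by 0.12 and the transcription factor dorsal (LOC100631054) by -0.13. The NF-kappa-B p100 subunit (LOC100631072), counted here with the IMD pathway, differed by 0.06. Lysozyme (LOC100642297), which cleaves bacterial cell walls, had 33764, 29978 and 34261 normalized counts in ovary-active and 22432, 31881 and 27564 in ovary-inactive fat bodies, a difference of 0.27 (adjusted p = 0.261). In the pool with 11978 counts of Def, 5 of the 14 other list genes lay outside the range of the other 5 fat body pools, 4 above it and 1 below it. In those other pools 3 to 7 of the 14 did. Dorsal was the gene below, at 1081 against 1161 to 1575, and the genes above were MAP3K7, Tollo, CD109 and the epsilon subunit of the inhibitor of NF-kappa-B kinase.

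In brain none of the 15 genes was called either. The beta-1,3-glucan-binding protein (LOC100642442) had the smallest limma p of them. Among the 11 with whole reads edgeR called 0 (0.0376% of the 5324 genes tested) and DESeq2 called only the beta-1,3-glucan-binding protein (0.113% of them). The list median was 0.03 and that of all genes 0.01.

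**Figure D5:**
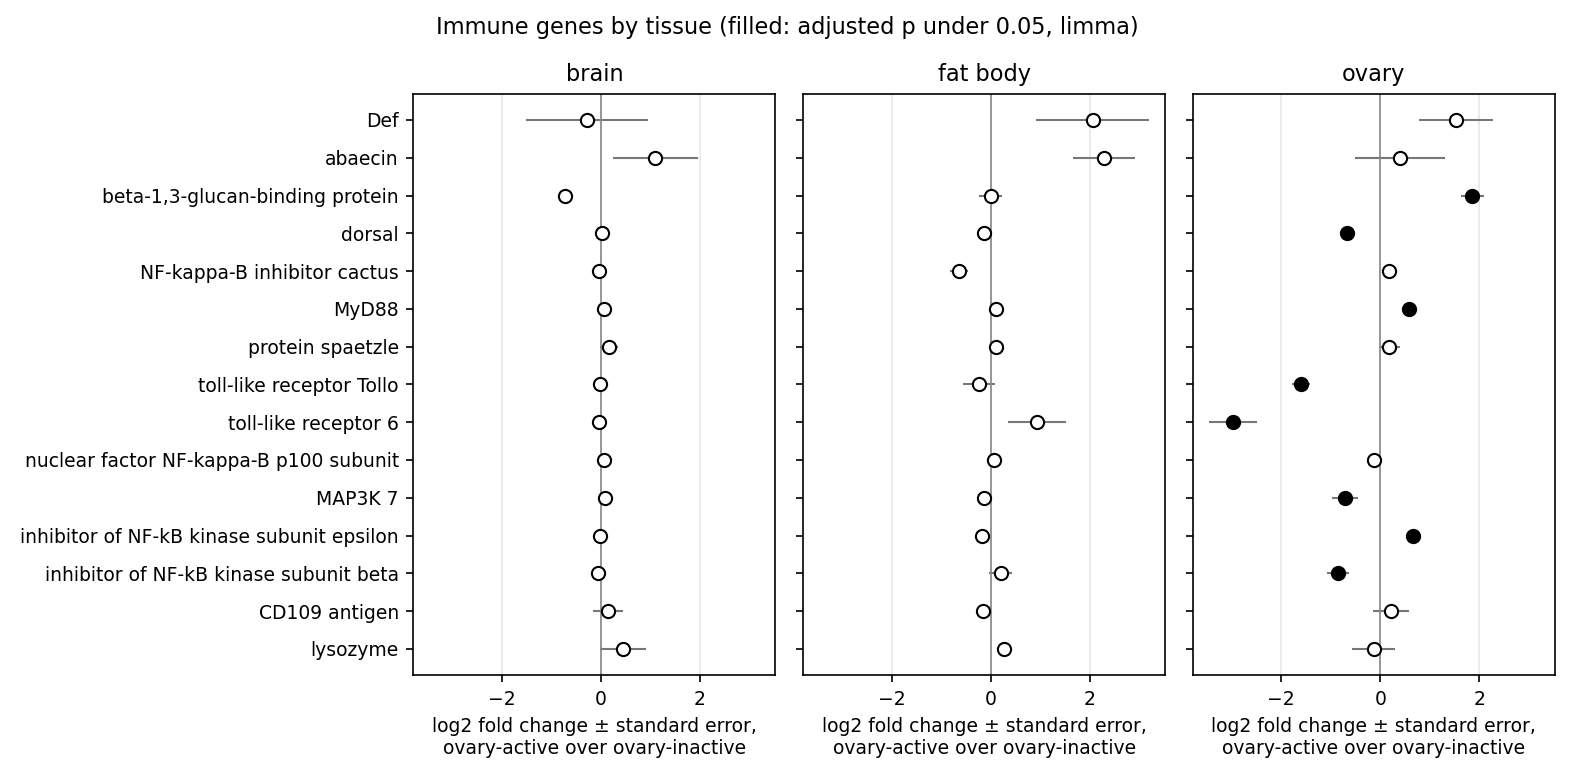
Log2 fold change, ovary-active over ovary-inactive, with its standard error (horizontal axis) for the 15 immune genes (rows) in brain, fat body and ovary, filled where limma gave an adjusted p under 0.05. Filled points are seen in ovary alone, 3 to the right of 0 and 5 to the left, while Def is open in each tissue with standard errors of 1.23, 1.13 and 0.75.

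In ovary 8 of the 15 genes were called, 3 as higher in ovary-active workers and 5 as higher in ovary-inactive workers. Over all genes tested 27.3% were called as higher in ovary-active and 26.7% as higher in ovary-inactive workers, so the count for the list is near the background. The median was 0.18 for the list and 0.02 for all genes. When each library was scaled to its total instead, the median of all genes shifted by -0.33 and 29.3% of the calls were higher in ovary-active workers, in place of 50.6%.

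The beta-1,3-glucan-binding protein, a receptor for fungal and bacterial cell wall sugars, rose to 1283, 1211 and 1058 normalized counts in ovary-active ovaries, against 323, 430 and 245 in ovary-inactive ovaries (log2 difference 1.86, limma adjusted p = 0.000692). MyD88 (LOC100631094) rose by 0.57 (adjusted p = 0.0102). The epsilon subunit of the inhibitor of NF-kappa-B kinase (LOC100644806) rose by 0.66 (adjusted p = 0.00435). Scaled to library totals, both kept their direction and were no longer called, with differences of 0.24 and 0.32. MyD88, the epsilon subunit and the beta-1,3-glucan-binding protein were also expressed in both egg libraries. The study treats such genes as potentially confounded in active ovaries, which hold eggs. The part of eggs in these differences was not tested.

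Among receptors, toll-like receptor 6 (LOC100631067) fell to 6.0, 20.2 and 8.3 normalized counts in ovary-active ovaries, against 101, 65.5 and 98.1 in ovary-inactive ovaries (log2 difference -2.98, adjusted p = 0.00188). Tollo (LOC100644648), another Toll family receptor, fell by 1.6 (adjusted p = 0.00054). Dorsal fell by 0.67 (adjusted p = 0.00769). The beta subunit of the inhibitor of NF-kappa-B kinase (LOC100642917) fell by 0.85 (adjusted p = 0.0136). The kinase MAP3K7 (LOC100631093), which acts above that complex, fell by 0.72 (adjusted p = 0.0473) and kept its call in 3 of 6 fits with 1 library left out. None of these 5 genes set the ovary-inactive replicate 3 apart as far as Def did. In ovary-inactive replicates 1, 2 and 3, dorsal had 2554, 2267 and 2861, Tollo 1984, 2117 and 2991, and MAP3K7 1492, 1516 and 1596. These were highest in replicate 3. Toll-like receptor 6 (101, 65.5 and 98.1) and the beta subunit (1774, 1381 and 1720) were highest in replicate 1.

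In worker-laid eggs, Def differed between the libraries. Its estimated count, a value scaled by transcript length and not between libraries, was 410 in replicate 1, and Def was listed at 0 in replicate 2. The value that a gene needed to count as expressed, at a zFPKM of -3, was 59.2 in replicate 1 and 52.2 in replicate 2. Def thus passed in replicate 1, with a zFPKM of -1.52, and was not among the 7828 genes expressed in both. In replicate 2 1051 genes were listed at 0, and 64 of them, Def included, had at least the value of Def in replicate 1. No gene was listed at 0 in replicate 1 with as high a value in replicate 2 (0 genes).

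Abaecin had estimated counts of 122.8 and 7.10 in egg replicates 1 and 2, lysozyme 121 and 20.6, and toll-like receptor 6 92.2 and 0.39. Troponin I had 7235 and 30.3, so that this marker gene of muscle was also higher in replicate 1. Hemocytin, a marker of blood cells, had 32.2 and 0.157, in each library below the value needed to count as expressed. The part of troponin I and hemocytin in the value of Def was not tested. Of the 15 immune genes 10 were expressed in both egg libraries, among them cactus with 5918 and 5500, spaetzle with 4224 and 4986 and the beta-1,3-glucan-binding protein with 4413 and 6157. The 5 others were Def, abaecin, lysozyme, toll-like receptor 6 and the beta subunit of the inhibitor of NF-kappa-B kinase. Of all 10661 genes listed for eggs, 7828 were expressed in both, so the count for the list is near the background.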

How the data were processed

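The authors pseudoaligned 50-base single-end reads from stranded mRNA libraries to the Bter_1.0 transcriptome with Kallisto 0.46.1, summed transcripts to genes with tximport and normalized each tissue with DESeq2 1.34.0 in R 4.1.3. The deposited tissue values are the resulting normalized counts, a signal scaled within each tissue. The deposited egg values are estimated counts (scaledTPM, as the authors made them), not normalized between libraries. Columns of the authors' own comparisons (fold changes and p-values) were not used.

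Here genes with a mean of at least 10 were tested in each tissue with limma 3.58.1 (R 4.3.3, variance trend) on log2(normalized count + 1), 3 pools against 3, with Benjamini-Hochberg adjustment and a threshold of 0.05. limma was chosen because the values are not raw counts. Dividing by the worth of 1 read (0.77 to 1.386) gave whole reads, within 0.02, for 59.6 to 60.9% of values per library and for 100% in brain ovary-inactive replicate 3. In brain, fat body and ovary 5802, 5613 and 5864 genes were whole in all 6 libraries. As alternatives, the 5324, 4943 and 5347 of them with a mean of at least 10 reads were tested with edgeR 4.0.16 and DESeq2 1.42.0. The tests were first run on simulated counts with the same excess over counting error for every gene. That check does not bear on a gene as spread between pools as Def. The limma, edgeR and DESeq2 p-values set the difference between phenotypes against the spread between pools, and do not test that spread. Genes named were Def, abaecin, list genes called in a tissue (at most 4 per group), and the 5 most like Def by each measure; other list genes, markers and the genes with the largest excess in a pool were chosen after their values were seen. Gene names came from the study's supplementary rows (2219 genes), and 9891 symbols matched RefSeq. Def and the lists were chosen with earlier results of these data known. Python 3.11.15, pandas 2.3.3, numpy 2.4.6, scipy 1.17.1 and matplotlib 3.10.9 were also used. No sequence of Def is shown.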

Additional observations from a re-analysis of the deposited data

Results flagged for a closer look

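The beta-1,3-glucan-binding protein (LOC100642442) had differences of opposite sign in brain and ovary, with no overlap between phenotypes in either. It was called by limma in ovary but not in brain. In brain DESeq2 called it, where 0.113% of the genes tested with DESeq2 were called, and edgeR did not. In brain its log2 difference, ovary-active minus ovary-inactive, was -0.72 (289, 237 and 295 normalized counts in ovary-active and 413, 524 and 420 in ovary-inactive pools, limma adjusted p = 0.9999), and in ovary it was 1.86 (adjusted p = 0.000692). In brain 4.53% and in ovary 66.6% of the genes tested had groups that did not overlap. The difference between the tissues was not tested. DESeq2, run on the genes with whole reads, gives no p where a single library weighs too heavily on a gene's fit. It gave none for Def in fat body. No other test of single outlying libraries was run, so the high ovary-inactive pools of Def stand as described values.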

How the results depend on the processing

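For Def no pseudocount (0.5 or 10), filter, scaling or count test changed a call in any tissue. Leaving out 1 library gave -1.34 to 1.17 in brain, where the sign turned when ovary-active replicate 1 (0.02) or ovary-inactive replicate 1 (1.17) was left out, 1.24 to 3.63 in fat body and 1.04 to 2.48 in ovary, called without ovary-inactive replicate 3 in both of these (3.63 and 2.48). edgeR and DESeq2 gave -1.74 and -1.75 in brain, 0.43 and 0.43 in fat body and 0.80 and 0.80 in ovary, and DESeq2 gave no p for Def in fat body. The study paired pools across phenotypes by worker age, but deviations of pools with equal replicate numbers correlated between -0.24 and 0.25, so the numbers were not used as a block in the reported tests. With the replicate block the values for Def were -0.28, 2.06 and 1.53 (adjusted p = 0.9999, 0.326 and 0.146), and 7 in place of 8 immune genes were called in ovary. Immune genes called with 1 library left out ranged from 0 to 0 in brain, 0 to 2 in fat body and 6 to 10 in ovary. Where the library left out was ovary-inactive, the range in ovary was 6 to 8. In the fits without an ovary-inactive library, limma called 0% of all genes in brain, 0.848 to 5.95% in fat body and 40.6 to 49.2% in ovary. That share was not computed for the fits without an ovary-active library, which gave the 10 in ovary, or with the replicate block. The 2 in fat body, without ovary-inactive replicate 3, were Def and abaecin. Abaecin in ovary turned to -0.46 and -0.40 without ovary-active and ovary-inactive replicate 2, with a range of -0.46 to 1.06. IKK beta lost its call in ovary without ovary-inactive replicate 1 (adjusted p = 0.0537), and MAP3K7 without each ovary-inactive replicate in turn and with the replicate block. In eggs Def would count as expressed (1 in place of 0) if 1 library sufficed or without replicate 2, with a range of 0 to 1 over the libraries left out. The likeness of abaecin, with alternatives chosen after seeing the data, stayed at 0.94 to 0.95 for levels and 0.72 to 0.75 for deviations. Causes were not tested. With 5 to 25 reads in 5 of the 6 brain libraries, the depth limits what a comparison in brain can show.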

Other observations

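The 6 genes with a larger excess than Def in the ovary-inactive replicate 1 of brain had no name in the sources used here. The leading pair, LOC105666895 and LOC100651895, had 847 and 620 normalized counts in that pool, against at most 4.34 and 3.88 in the other two ovary-inactive pools. In the ovary-inactive replicate 3 of ovary the leading gene was LOC100645597, with 424 normalized counts against 0.873 and 14.6. In the ovary-inactive replicate 3 of fat body, LOC100648451 had 262 against 53.7 and 73.9, and LOC100643142 had 1372 against 491 and 523. These genes were picked for their values and are given without a test.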
